A study of Bos taurus with 20 samples.

Results

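The probes for cytosolic ribosomal proteins on a bovine 44K oligonucleotide array were followed in endometrium, the lining of the uterus, from 10 cows. Probes were taken by gene name: every non-control probe named RPL or RPS with a number (closing A, X, Y or L allowed), together with RPSA, RPLP0, RPLP1 and RPLP2, and without the RPS6K kinases. This gave 292 probes for 77 gene names among the 43653 probes of the array, and the naming rule itself uses no measured value. Each cow was biopsied in an early period, 42 to 86 days after calving (60.1 ± 13.3, SD, n = 10), and again in a late period, 343 to 436 days after calving (388.9 ± 27.5, SD, n = 10). All 20 biopsies were taken 7 days after oestrus in the horn ipsilateral to that cycle's corpus luteum, and each was read on an array of its own. The labels name female cows and give no breed, age, genotype or treatment. A biopsy holds a mixture of cell types, so a lower or higher signal can mean fewer or more cells of a type or less or more RNA per cell, which cannot be told apart.

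Each ribosome is built from a small subunit, which binds the mRNA and decodes it, and a large subunit, which joins the amino acids. The proteins named RPS belong to the small subunit and those named RPL to the large one, with RPLP0, RPLP1 and RPLP2 forming the flexible stalk that recruits translation factors. Their mRNAs are among the most abundant in most tissues, and their translation is controlled together through a terminal oligopyrimidine tract at the 5′ end, downstream of the kinase MTOR. Mammalian genomes also carry many processed copies of these genes, so a short probe can read a copy or a paralog as well as the gene it is named for.

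The probes are 60 bases long, and some pairs show how closely probes of the same gene can overlap or oppose each other. In the lines below, capitals mark the longest run that both members of a pair share, for RPL10 as reverse complement. The RPL10 pair lies on opposite strands of the same stretch, the RPS14 pair was placed on different chromosomes, and the RPL17 and RPL3L pairs tile the same stretch a few bases apart. The RPS27L probe, which has no capitals, is shown because the probes of RPS27L, described first among the genes below, were higher late in most cows.
RPL10 A_73_P099911: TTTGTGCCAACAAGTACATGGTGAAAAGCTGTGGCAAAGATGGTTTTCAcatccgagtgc
RPL10 A_73_P098936: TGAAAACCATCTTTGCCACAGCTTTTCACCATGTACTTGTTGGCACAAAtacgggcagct
RPS14 A_73_P036671: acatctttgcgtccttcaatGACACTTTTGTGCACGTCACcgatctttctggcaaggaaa
RPS14 A_73_P070731: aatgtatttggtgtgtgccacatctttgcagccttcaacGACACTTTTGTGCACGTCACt
RPL17 A_73_P064436: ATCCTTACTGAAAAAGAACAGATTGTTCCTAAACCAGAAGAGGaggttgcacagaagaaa
RPL17 A_73_P082436: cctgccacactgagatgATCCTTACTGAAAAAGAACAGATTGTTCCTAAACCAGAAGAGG
RPL3L A_73_118617: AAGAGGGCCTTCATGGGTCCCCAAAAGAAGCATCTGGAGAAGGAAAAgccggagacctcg
RPL3L A_73_P348591: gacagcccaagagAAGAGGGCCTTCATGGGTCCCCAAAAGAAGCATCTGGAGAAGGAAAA
RPS27L A_73_P030581: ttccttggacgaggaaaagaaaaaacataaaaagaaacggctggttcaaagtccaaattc

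All sequences are as deposited and read 5′ to 3′, and their positions are those the files give on the build HGSC Btau_3.1. The RPL10 probes lie at chrX:23718039-23718098 on the plus strand and chrX:23718027-23718087 on the minus strand, and share 49 bases. The RPS14 probes, at chr7:61245013-61245565 (minus) and chr17:52531613-52531672 (plus), share an unbroken run of 20 bases. The RPL17 probes lie on the minus strand at chr24:50819575-50819634 and chr24:50819592-50819651 and share 43 bases. The RPL3L probes lie on the minus strand at chr25:1990539-1990869 and chr25:1990552-1990882 and share 47 bases. A span over 62 bases was taken to mean that the probe was placed across a gap, as over a splice junction. The RPS27L probe lies at chr10:47231261-47231320 on the plus strand. The hexamer AATAAA, the usual polyadenylation signal, was searched on the probe's own strand and stood in 75 of the 292 ribosomal protein probes, or 25.7%, against 9.35% of all probes of the array. Median GC content was 43.3% in the ribosomal protein probes and 45.0% over the array.

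Most ribosomal protein probes were measured on every array. Of the 292 probes, 269 were well above background on all 20 arrays, 5 on 8 to 19, 3 on 1 to 7, and 15 on none. The 274 probes above background on at least 8 arrays, standing for 76 genes, were tested. The 18 left out were all designed on sequences other than curated RefSeq transcripts, and RPL10L, a testis paralog of RPL10, was the only gene lost with them. No spot was saturated. Levels are log2 processed signal minus the 75th percentile of that array, so a level of 6 lies 6 log2 units above the percentile.

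Across the array, 71.8% to 80.2% of spots were well above background. The arrays filled 5 slides of 4, all scanned on the same day: slides 1 and 2 held 8 early samples, slides 4 and 5 held 8 late ones, and only slide 3 held both periods. Of 33759 tested probes, 381 passed an adjusted p of 0.05 (limma, cow as a block, Benjamini-Hochberg), 119 higher and 262 lower in the late period. The higher share of those calls was 31.2% here, 46.6% when normexp corrected the background, 42.5% for quantile-normalized values and 41.0% after median scaling. Without cow 7 it was 59.6%, with 118 probes higher and 80 lower.

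None of the 274 ribosomal protein probes passed that threshold, against 1.13% of all tested probes, 0.352% higher and 0.776% lower. The smallest adjusted p was 0.055 (limma, cow as a block), and at an unadjusted p of 0.05 there were 28 probes higher and 3 lower in the late period, where 10.4% and 13.4% of all tested probes were. The changes were small and mostly on the same side: 221 of 274 were above 0, or 80.7%, against 47.4% of all tested probes. Their median was 0.061 on the log2 scale, with a range of -0.29 to 0.82, and the median over all tested probes was -0.016. The median stayed above 0, between 0.051 and 0.089, under the other background correction and both other scalings.

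Intervals were narrow in the fit without slide as a term, where the median SE was 0.073, and wider with slide as a fixed block, where it was 0.39. For 265 of the 274 probes the 95% interval of the change lay within a 1.5-fold difference either way, as it did for 65.2% of all tested probes, and for 220 it lay within 1.25-fold, as for 25.4% of all tested. The median residual SD was 0.12 for ribosomal protein probes and 0.30 over all tested probes. Other genes of translation, each by its probe of highest mean signal, also had narrow intervals. They lay within 1.5-fold for 24 of 24 initiation factor, 71 of 75 mitochondrial ribosomal and 24 of 26 ribosome assembly genes. Median residual SDs of these lists were 0.15, 0.16 and 0.24. For no member did the 10 late arrays lie entirely above or entirely below the 10 early ones, which happened for 0.0326% and 0.0681% of all tested probes. At least 8 of 10 cows were higher in the late period for 64 members and lower for 5, against 16.2% and 17.2% of all tested probes.

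**Figure D1:**
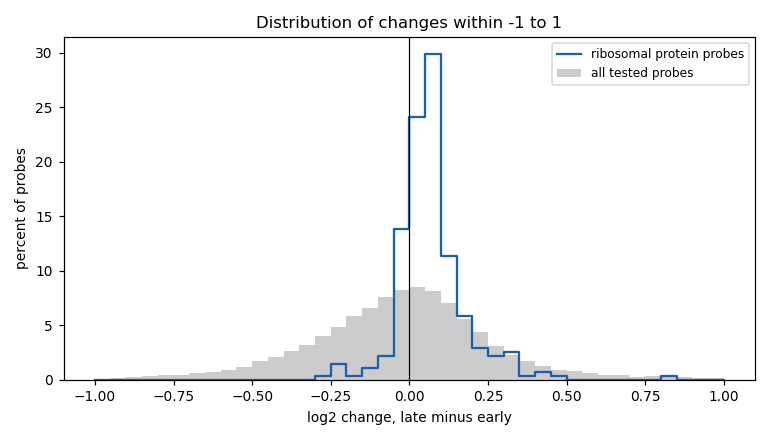
Percent of probes (y axis) in bins of 0.05 of the log2 change, late minus early (x axis, shown from -1 to 1), for 33759 tested probes (grey bars) and 274 ribosomal protein probes (blue line). The blue line is narrower and sits to the right of 0, with its median at 0.061.

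The small positive shift was uneven over cows. On the early arrays the median level of the 274 probes ran from 5.56 in cow 10 to 5.99 in cow 9, with a median of 5.71 (mean 5.75 ± 0.14, SD, n = 10). The late arrays ran from 5.69 in cow 4 to 5.97 in cow 9, with a median of 5.83 (mean 5.83 ± 0.080, SD, n = 10). The ranges of the periods overlap almost entirely, and cow 9 was highest in both.

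Within cows, the median change was 0.30 in cow 10, 0.16 in cow 6, 0.14 in cow 1, 0.095 in cow 7, and 0.066 in cow 3 and again in cow 5. It was -0.0012 in cow 8, -0.056 in cow 2, -0.071 in cow 4 and -0.071 in cow 9. It was thus above 0 in 6 of 10 cows, and its SD over cows (0.12) was larger than its mean (0.063). In cow 10, 261 of the 274 probes were higher late; in cow 2 only 64 were. The median over all tested probes was -0.17 in cow 9 and between -0.056 and 0.036 in the other cows. Without cow 10 the median change over members was 0.031 and 67.5% of them were above 0.

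Slide and period were largely confounded. Array medians ran from 5.66 to 5.94 on slide 1, from 5.63 to 5.80 on slide 2, from 5.69 to 5.86 on slide 4 and from 5.78 to 5.97 on slide 5. On slide 3 the early arrays of cows 9 and 10 read 5.99 and 5.56, and the late arrays of cows 1 and 2 read 5.87 and 5.90. With slide as a further fixed block the median member change was 0.20, with a median SE of 0.39. It was 0.098 on slide 3 alone, with a median SE of 0.27, and 0.062 with slide as a random block. Slide 3 alone is an unpaired comparison, since its 2 early and 2 late arrays come from different cows. No member passed the threshold in any of these 3 fits. Neither did any probe of the array with slide as a fixed block or on slide 3 alone, while 64 of 33759 passed with slide as a random block. The counts of these fits therefore cannot set the members apart from the array.

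**Figure D2:**
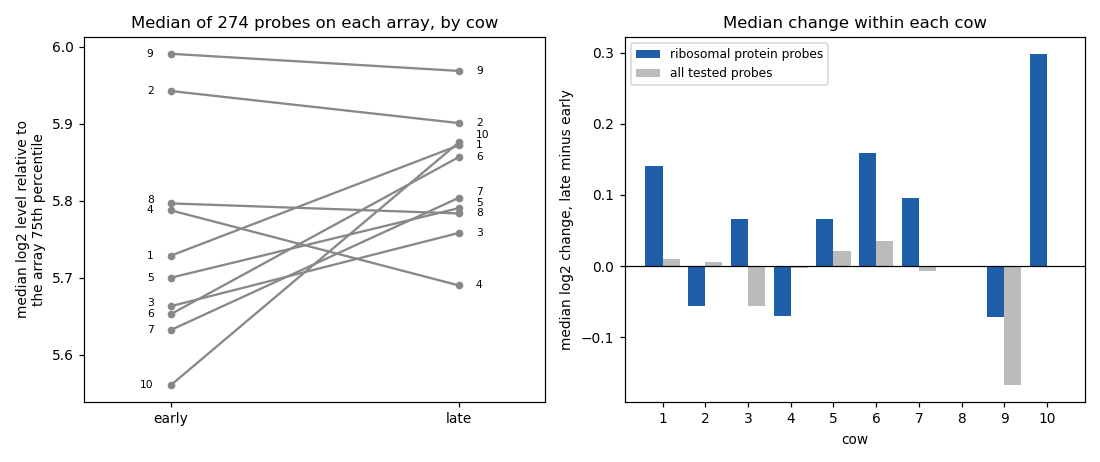
Left, median log2 level of 274 ribosomal protein probes on each array, relative to the 75th percentile of that array, with the early and late arrays of a cow joined by a line and labelled with its number. Right, median log2 change within each cow for these probes (blue) and for all tested probes (grey). Cow 10 has the lowest early median, 5.56, and the widest change, 0.30.

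The small and the large subunit gave similar numbers. Of 110 tested probes for 32 small subunit genes, 93 were above 0 with a median change of 0.057, and 13 were higher and 0 lower at an unadjusted p of 0.05. For the large subunit, 120 of 150 probes for 41 genes were above 0, with a median of 0.065, and 14 were higher and 3 lower. The 14 stalk probes had a median of 0.017, 8 of them above 0, with 1 higher and 0 lower. At the same unadjusted p, 10.4% of all tested probes were higher and 13.4% lower. No probe in any of the 3 groups passed the adjusted threshold, against 1.13% of all tested probes. The groups were not tested against each other.

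**Figure D3:**
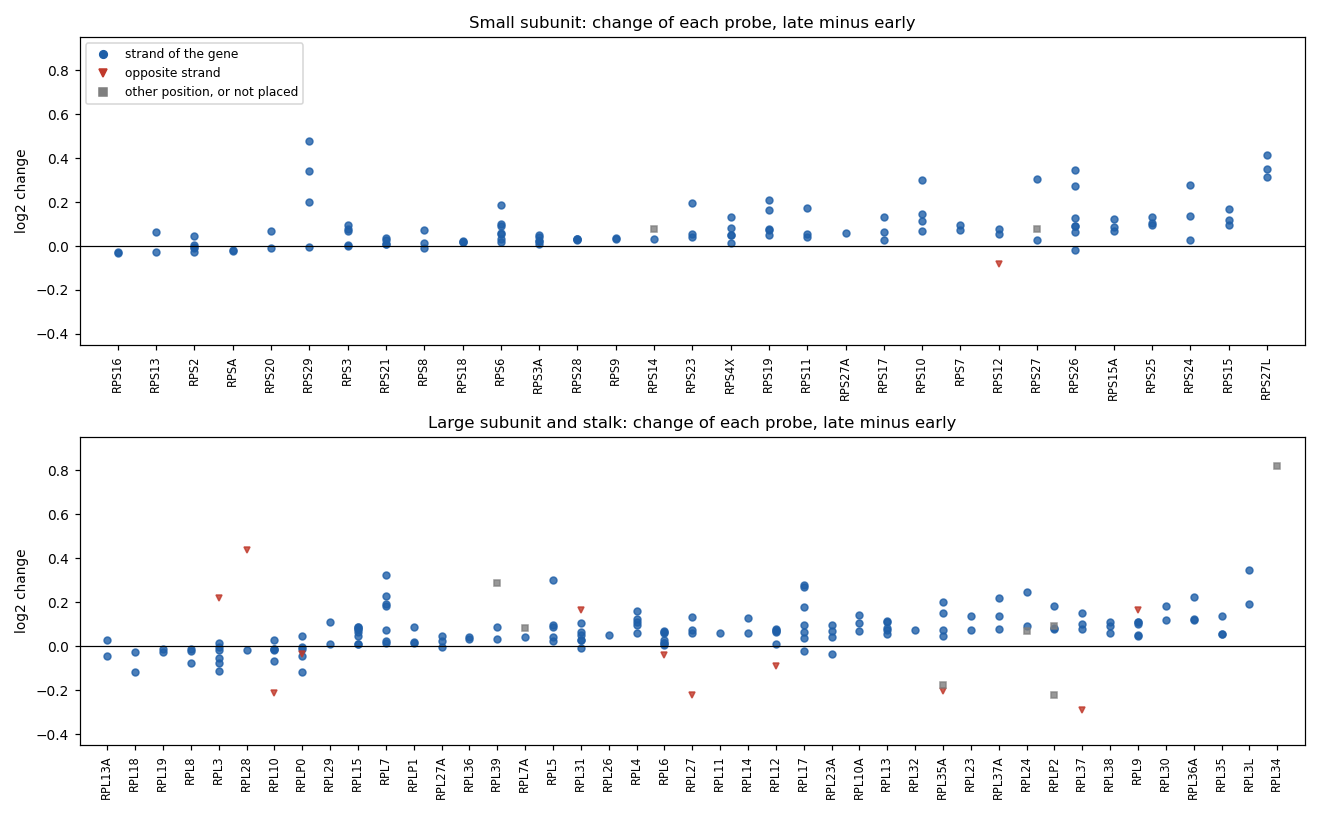
Log2 change, late minus early, of 268 tested probes, grouped by gene (x axis) and ordered by the change of the gene's probe of highest mean signal, for the small subunit (top) and the large subunit with the stalk (bottom). Blue circles are probes on the strand of the gene and red triangles probes on the opposite strand. Grey squares are probes placed elsewhere, not placed, or without a RefSeq-based probe to compare. RPL34, at 0.82, is the highest point and is of the last kind.

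Among small subunit genes, each taken by its probe of highest mean signal, RPS27L had the highest change. RPS27L is a paralog of RPS27 that is known as a p53 target. Its probe A_73_P030581, printed above, ran from -1.14 to -0.64 on the early arrays (median -0.85) and from -0.68 to -0.19 on the late arrays (median -0.38). The periods overlapped only slightly, since the late arrays of 3 cows (1, 5 and 6) lay within the early range. The change was 0.41 (95% interval 0.19 to 0.63), or 1.33-fold, higher in 9 of 10 cows, with an adjusted p of 0.064 (limma, cow as a block).

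The other RPS27L probes gave similar sizes. Probe A_73_P093536 at chr10:47233517-47233576 ran from 2.001 to 2.61 early (median 2.36) and from 2.27 to 2.97 late (median 2.69), a change of 0.32 with an adjusted p of 0.11 in limma. Probe A_73_P512833, at chr10:47231070-47231130, ran from -6.35 to -4.81 early (median -5.12) and from -5.27 to -4.39 late (median -4.90), a change of 0.35 with an adjusted p of 0.11 in limma. Each was higher in 9 of 10 cows, and in each the ranges overlapped. With slide entered as a fixed block the sign of all 3 turned, to -0.27 (SE 0.33), -0.33 (SE 0.42) and -0.96 (SE 0.48). In the unpaired comparison on slide 3 alone they were 0.47 (SE 0.24), 0.47 (SE 0.23) and 0.19. A_73_P030581 passed the threshold without the cow block (adjusted p 0.037) and with cow as a random effect (adjusted p 0.012).

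RPL34, a large subunit protein, is represented by A_73_P382731 alone, at chr6:18084305-18084364 on the minus strand. This probe was not designed on a curated RefSeq transcript. RPL34 has no RefSeq-based probe to compare, so whether it lies on the gene's strand is not known. It was far dimmer than most members, whose early array medians ran from 5.56 to 5.99, and which transcript it reads was not tested. The probe ran from -3.73 to -1.75 on the early arrays (median -2.77) and from -2.28 to -1.86 on the late arrays (median -2.04). The late arrays were tightly grouped (SD 0.13) and the early ones were not (SD 0.65): the 4 early arrays of slide 2 were the lowest, between -3.73 and -3.34, and the early arrays of cows 9 and 2 were as high as the late ones. The change was 0.82 (95% interval 0.42 to 1.22), or 1.77-fold, higher in 8 of 10 cows, with an adjusted p of 0.055 in limma. It was -0.26 (SE 0.62) with slide as a fixed block and 0.087 in the unpaired comparison on slide 3 alone. Without cow 9 its adjusted p was 0.040 in limma.

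RPS26 and RPL5 are named here because of their p-values, after these were seen. RPS26 is a small subunit protein at the mRNA exit channel, and 7 probes read it. A_73_P031466, at chr5:61844811-61844870 on the minus strand, ran from -1.20 to -0.50 early (median -0.80) and from -0.94 to -0.16 late (median -0.46). Every cow was higher late, although the ranges overlapped, with a change of 0.34 (95% interval 0.17 to 0.52) and an adjusted p of 0.058 in limma. A probe shifted by 5 bases, A_73_P090721, had a change of 0.27, again above 0 in 10 of 10 cows, with an adjusted p of 0.082 in limma. The other 5 RPS26 probes lay between -0.019 and 0.13.

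RPL5 carries 5S rRNA into the large subunit and, when free, binds MDM2. Its probe A_73_P264441, which the files place over 28 bases at chr3:53996649-53996676, ran from 1.99 to 2.71 early (median 2.17) and from 2.38 to 2.73 late (median 2.55). All 10 cows were higher late by a change of 0.30 (95% interval 0.14 to 0.46, adjusted p 0.064 in limma), and the early arrays of cows 9 and 2 lay within the late range. The other 4 RPL5 probes gave 0.022, 0.042, 0.087 and 0.095. Across alternatives, RPS26 A_73_P031466 had adjusted p-values from 0.031 to 0.9998 and RPL5 A_73_P264441 from 0.033 to 0.9998 in limma, so that both crossed the threshold in some and not in others.

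**Figure D4:**
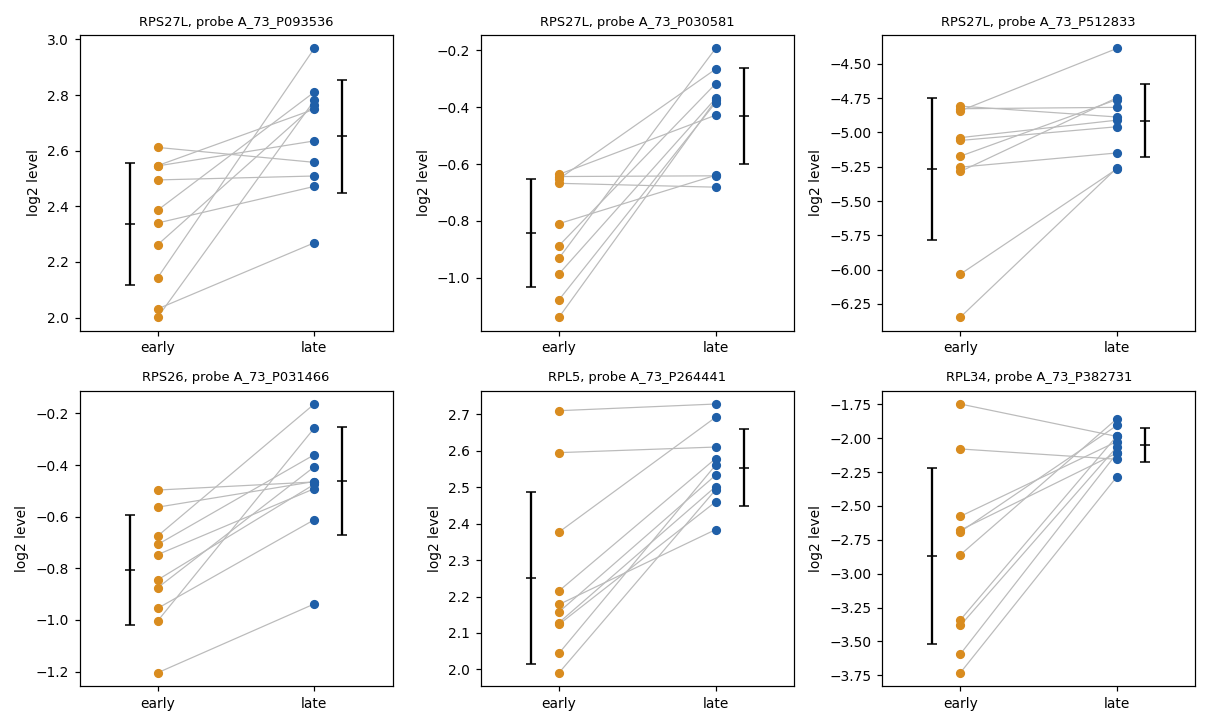
Log2 level relative to the array's 75th percentile for 6 probes of RPS27L, RPS26, RPL5 and RPL34, with early (orange) and late (blue) arrays of a cow joined by grey lines; black bars are the mean and SD of 10 arrays. The scale differs between panels. RPS26 and RPL5 were higher late in 10 of 10 cows, and the RPL34 early arrays spread from -3.73 to -1.75.

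When each gene was taken by its probe of highest mean signal, 60 of 76 were above 0. In a limma fit with 1 such probe per gene, their median change was 0.051, against 0.016 over all genes. At an unadjusted p of 0.05 in that fit, 2 of the 76 were higher and 0 lower. Over all genes, 4376 of 19388 were under that p in either direction. After RPL34 and RPL3L (0.35) and RPS27L, the highest were RPS15 (0.17), RPL35 (0.14) and RPS24 (0.14). RPS15, a protein near the decoding site, ran from 5.56 to 6.21 early (median 5.94) and from 5.93 to 6.18 late (median 6.08), in wholly overlapping ranges. RPL35 ran from 4.90 to 5.51 early (median 5.07) and from 5.08 to 5.51 late (median 5.21). RPS24 had its early arrays at 5.58 to 6.23 (median 5.91) and its late ones at 5.85 to 6.23 (median 6.11). Late arrays of these 3 genes lacked the lowest early values and ended near the highest. RPS25, used by several viral internal ribosome entry sites, had a change of 0.13, and RPL38, known from mouse for a role in translating Hox mRNAs, of 0.11. Adjusted p-values of these 5 genes in limma lay between 0.24 and 0.31.

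At the other end, low changes by this measure were those of RPL13A (-0.043), RPS16 (-0.032), RPL18 (-0.029), RPS13 (-0.028) and RPS2 (-0.025), with adjusted p-values of 0.77 to 0.86 in limma. RPL13A, which in human monocytes also serves in the GAIT complex, ran from 6.55 to 6.92 early (median 6.71) and from 6.45 to 6.92 late (median 6.67). RPS2 ran from 6.44 to 7.09 early (median 6.88) and from 6.68 to 6.99 late (median 6.81). Ranges overlapped almost wholly in both genes, with no set of arrays standing apart. These 5 changes are smaller than their SE, which was 0.062 to 0.081.

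No probe of the stalk, the ubiquitin fusion RPS27A or the X-linked RPS4X passed the threshold, against 1.13% of all tested probes. The stalk probes ran from -0.22 to 0.18, both ends in RPLP2. RPLP0, the stalk's anchor, ran from 6.87 to 7.09 early (median 6.99) and from 6.75 to 7.12 late (median 6.96), a change of -0.015. By its probe of highest mean signal the change was 0.018 for RPLP1 and 0.093 for RPLP2, with 8 of 10 cows higher for RPLP2. RPS27A, made as a fusion with ubiquitin, ran from 7.07 to 7.46 early (median 7.27) and from 7.23 to 7.45 late (median 7.33). Its change was 0.060 with a 95% interval of -0.079 to 0.20. Changes of the 5 RPS4X probes were 0.013 to 0.13, and the naming rule found no RPS4Y (RPS4Y1, outside it, is given below). Early and late ranges overlapped in each of these genes.

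RPL3L and RPL10L are paralogs with restricted expression, RPL3L in heart and skeletal muscle. The RPL3L probes printed above ran from -6.50 to -4.23 early (median -4.64) and -5.22 to -3.66 late (median -4.60) for A_73_118617, and from -6.71 to -4.69 (median -4.88) and -5.72 to -4.29 (median -5.13) for A_73_P348591. Their changes of 0.35 and 0.19, with SEs of 0.21 and 0.22, come from probes that share 47 bases, and the medians of the second probe are in the opposite order to its change. Without cow 4 they were 0.20 and 0.033, and without cow 6 they were 0.48 and 0.33. RPL10L was well above background on 5 arrays only and was not tested.

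Probes of the same gene did not always give the same sign. Of 71 genes with several tested probes, 42 had all of them above 0, 6 had all of them below (among them RPL18, RPL19, RPL8, RPS16 and RPSA), and 23 were mixed. The widest gaps were in RPS29 (-0.0065 to 0.48), RPL28 (-0.018 to 0.44), RPL37 (-0.29 to 0.15) and RPL35A (-0.20 to 0.20). For RPS29 the probe near 0 was A_73_P044591, which carries AATAAA and ran from 6.06 to 6.38 early (median 6.24) and from 5.99 to 6.41 late (median 6.25). The probe at 0.48, A_73_P122926, ran from -4.90 to -3.72 early (median -4.45) and from -4.49 to -3.01 late (median -4.07). The early array of cow 1 was flagged as an outlier for that probe and left out, so its change rests on 9 cows. In RPL28, RPL37 and RPL35A 1 end of the gap was a probe on the opposite strand. These ends were not steady: RPS29 A_73_P122926 was 0.12 (SE 0.36) in the deposited value table and RPL28 A_73_P133861 was 0.19 after normexp and 0.26 without cow 10. Without cow 9, RPL35A A_73_P169612 was -0.030 and RPL37 A_73_P393421 was -0.19.

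Probes that share sequence did not always give the same estimated change either. RPL17 lines the exit tunnel of the large subunit, and its 7 probes lay between -0.022 and 0.28. Of the pair printed above, A_73_P064436 ran from 5.66 to 6.02 early (median 5.72) and from 5.69 to 6.04 late (median 5.83), a change of 0.065 (SE 0.065). A_73_P082436 ran from 4.65 to 5.23 early (median 4.81) and from 4.82 to 5.24 late (median 5.002), a change of 0.18 that all 10 cows shared. The RPS14 pair gave 0.034 (SE 0.060) on chromosome 7 and 0.075 on chromosome 17. The difference between such probes was not tested.

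Strand and position of the probe were recorded for each member. On the strand of the gene, 210 of 253 tested probes were above 0, with a median of 0.061, and 26 were higher and 0 lower at an unadjusted p of 0.05. On the opposite strand 4 of 12 were above 0, with a median of -0.062, and 0 were higher and 2 lower. The median residual SD on that strand was 0.28. Of all tested probes, 10.4% were higher and 13.4% lower at that unadjusted p. The 26 of 253 are close to the first of these shares. In the RPL10 pair, the probe on the gene's strand ran from 3.26 to 3.94 early (median 3.76) and from 3.51 to 3.81 late (median 3.62), a change of -0.067. The opposite probe ran from -1.95 to -0.50 early (median -0.92) and from -2.06 to -0.66 late (median -1.14), a change of -0.21. Neither passed the threshold, and whether the opposite probe reads an antisense transcript was not tested.

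Probes placed at most 62 bases wide and carrying AATAAA had a narrower range than those without it. All 61 tested probes of that kind, on the gene's strand, lay between -0.056 and 0.14, with 48 above 0, a median of 0.041, and 0 at an unadjusted p of 0.05. The 131 without the hexamer lay between -0.11 and 0.48, with 111 above 0, a median of 0.070, and 21 higher and 0 lower. Over all tested probes 10.4% were higher and 13.4% lower at that unadjusted p. The 61 probes spanning more than 62 bases had a median of 0.075, with 51 above 0. Residual SDs (medians) were 0.098, 0.13 and 0.12 in that order.

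Changes of ribosomal protein probes went together across cows. Over the 10 cows' changes, the median correlation between tested probes of the same gene on its strand was 0.79 (405 pairs), and between probes of different genes it was 0.58 (31221 pairs). It was 0.54 within the small subunit, 0.60 within the large and 0.58 between them. With the probes of mitochondrial ribosomal genes it was 0.066 (136 probes). The correlation among those probes themselves, or among other probes of like level, was not computed, so whether it is particular to the members was not tested. The points are the same 10 cows, and each value shares its array's scaling, so these are descriptions with no test.

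**Figure D5:**
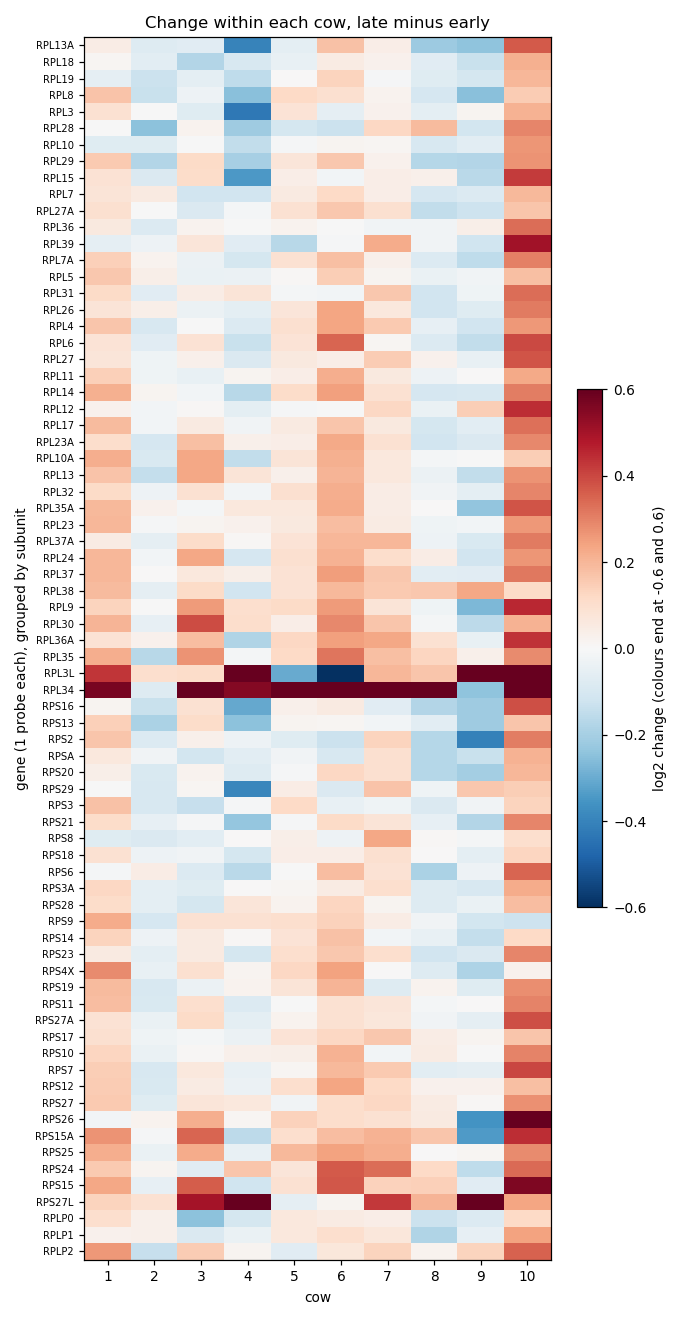
Log2 change, late minus early, of 74 ribosomal protein genes (rows, the probe of highest mean signal each, grouped into large subunit, small subunit and stalk) in 10 cows (columns); red is higher late, blue lower, and colours end at -0.6 and 0.6. Cow 10 is red in nearly every row, while cows 2, 4 and 9 are mostly blue.

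Other genes of translation were set beside the ribosomal proteins, each gene by its probe of highest mean signal. None of them passed the threshold, against 1.13% of all tested probes, a share so low that lists this short are not set apart by it. The 7 elongation factor genes had a median change of 0.016, with EIF5A at -0.14 and EEF1D at 0.077. Among 24 initiation factor genes, 12 were above 0 and the median was -0.0081. EIF6, which keeps the subunits apart during ribosome assembly, was at -0.31 (adjusted p 0.12 in limma) and EIF2S3, a subunit of the factor that brings the initiator tRNA, at 0.19 (adjusted p 0.13 in limma).

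Of 11 other genes whose mRNAs carry a terminal oligopyrimidine tract, 7 were above 0 with a median of 0.013, among them NACA at 0.13, while the intermediate filament gene VIM was at -0.31. Ribosome assembly genes had a median of -0.048 over 26 genes, 9 of them above 0. RRP9 was at -0.76 (SE 0.31, adjusted p 0.17 in limma) and RRN3, a factor for RNA polymerase I, at -0.19 (adjusted p 0.19 in limma). The RRP9 probe was dim, with early arrays from -6.26 to -2.45 and late arrays from -6.95 to -5.06. The 75 mitochondrial ribosomal genes had a median of 0.048, with 49 above 0, and 12 were higher and 1 lower at an unadjusted p of 0.05, where 10.4% and 13.4% of all tested probes were. MRPL3 and MRPS14 were at 0.25 each. The 16 genes of MTOR and S6 kinase signalling had a median of 0.042, with MTOR at -0.25 (adjusted p 0.099 in limma) and TSC1, which holds MTOR back, at 0.32 (adjusted p 0.13 in limma). Among 5 ribosomal protein paralogs outside the naming rule the median was 0.037, with the RPL36AL probe at 0.12 and the RPS4Y1 probe at 0.084. The RPS4Y1 probe ran from 5.44 to 6.05 early and from 5.58 to 5.85 late, in cows that the labels name as female. Which gene or copy it reads was not tested.

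Some cell type markers differed between the periods in the same samples. Of 15 macrophage marker genes 5 fell, where 0.776% of all tested probes were called lower, with a median change of -0.75 over the list, and their mean level ran from -0.95 to 0.65 on early and from -1.64 to -0.019 on late arrays. Of 17 lymphocyte markers 1, NKG7, fell. None of 11 epithelial, 11 stromal, 7 endothelial, 8 smooth muscle or 4 red cell markers passed the threshold, against 1.13% of all tested probes. Epithelial markers had a median of 0.33, 10 of them above 0 and their mean level between -0.062 and 1.32 early and 1.05 and 1.98 late, and stromal markers had a median of -0.21, 2 of them above 0. All tested epithelial, stromal and endothelial markers were above background on all 20 arrays. The part of these shifts in the ribosomal protein values was not tested.

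Day after calving was also tested within each period, as a slope over 10 days. None of the 274 probes passed the threshold in either period, nor did any of the 33759 tested probes (0% called, limma), and none had an unadjusted p under 0.05, against 5.28% of all tested probes in the early and 1.13% in the late period. The steepest by p were RPLP2 A_73_P118631 (-0.13 per 10 days, 95% interval -0.26 to 0.0072), RPS27L A_73_P093536 (0.086) and RPL3 A_73_P455891 (-0.084) in the early period. In the late period they were RPL37A A_73_108806 (-0.079), RPL28 A_73_P046841 (0.049) and RPS15 A_73_P511313 (0.087). Smallest adjusted p-values in limma were 0.96 early and 0.99999 late. Median slopes were -0.0060 and 0.00025, with median SEs of 0.054 and 0.020.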

How the data were processed

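Endometrium of 10 cows was measured on 20 one-colour Agilent arrays, 1 per sample, early and late after calving. Per the file headers, spots were quantified by Feature Extraction 10.5.1.1. The deposited intensity values are, per the file headers, background-subtracted and detrended processed signals. The deposited value table holds log2 values, which the authors set relative to each array's 75th percentile, as the comparison with the scanner values shows. Here, spots of a probe were averaged and each array's 75th percentile was subtracted on the log2 scale. Probes well above background on at least 8 of 20 arrays were fitted with limma 3.58.1 (R 4.3.3), cow as a block, with Benjamini-Hochberg adjustment over 33759 probes and a threshold of 0.05. The fit was tested on simulated data.

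Cows were paired by the number in the sample titles and by the animal number. The late samples' source names carry other numbers. Deviations of the samples of a cow correlated at -0.11 to 0.77 (median 0.41), 8 of 10 over 0.1, against a median of -0.032 between cows.

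Of the 292 probes, 241 matched a RefSeq accession and all 241 had the same symbol. A probe was called opposite or elsewhere by comparing its deposited position with those of the RefSeq-based probes of its name. The naming rule uses no measured value, but the members and lists were chosen with earlier results of these data known. Named genes were the 6 highest and 6 lowest changes, the 3 smallest p-values of each subunit and of the stalk, RPS27A, RPS4X, names ending in L, the 4 widest gaps between probes of a gene, and the 3 smallest p-values of each day trend; in other lists, up to 4 genes past the threshold or the 2 of smallest p. A few named items are not reported here. Alternatives changed the pairing, background correction, scaling, filter, choice of probe, variance, slide and cows. The number of arrays limits the precision.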

Additional observations from a re-analysis of the deposited data

Results flagged for a closer look

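Of 82 sets of 10 arrays examined for the probes of the named genes, 5 held an array far from the others, and chance gives about 1 in 20. The values are log2 levels relative to the array's 75th percentile. Of the RPL35A probes, A_73_P062336 was highest on the early array of cow 9, at 6.63, A_73_P074361 was lowest on the late array of cow 3, at 6.01, and the opposite-strand probe A_73_P169612 was lowest on the early array of cow 2, at -1.06. The RPS29 probe A_73_P327756 was highest on the late array of cow 9, at -2.09. The opposite-strand RPL37 probe A_73_P393421 was lowest on the early array of cow 2, at -3.87.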

How the results depend on the processing

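No ribosomal protein probe passed the threshold in the fit reported, nor with the deposited value table, no filter on dim probes, the filter on all 20 arrays, 1 probe per gene, the mean of a gene's probes or any of the 3 slide settings. Calls among them were 1 without the replicate block (RPS27L), 7 with cow as a random effect (RPS27L with 2 probes, RPL34, RPS26, RPL5, RPS27 and RPL39), 2 with normexp (RPS26 and RPL5), 2 after quantile normalization (RPL34 and RPS26), 2 after median scaling (RPL34 and RPL5) and 1 with trended and robust variance (RPL5). All were higher late. Leaving out each cow gave 0 to 1, the 1 being RPL34 without cow 9. The median change of 0.061 became 0.20 with slide as a fixed block and lay between 0.031 (without cow 10) and 0.074 when each cow was left out.

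Over all tested probes the 381 calls became 195 without the replicate block, 1536 with cow as a random effect, 687 after quantile normalization, 135 with no filter, 252 with 1 probe per gene, 244 when a gene's probes were averaged, 64 with slide as a random block, and 0 with slide as a fixed block (limma; 585 at an unadjusted p of 0.05) or on slide 3 alone (2727 unadjusted). Leaving out each cow gave 67 to 465, and each cow but cow 5 moved the count by more than 1.5 times. In the day trends no member passed under any alternative run.

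Of 927 values for 40 probes of named genes, 880 kept the sign and the side of the threshold, 7 (RPL34 and RPS27L) passed it and 40 turned sign, all 40 with p above the threshold; causes were not tested. With slide as a fixed block the signs turned to -0.27, -0.33 and -0.96 for RPS27L, -0.45 and -0.89 for RPL3L, -0.26 for RPL34, 0.075 for RPS13, 0.36 for RPLP0, 0.17 for RPL18, 0.20 for RPS29, 0.43 for RPL13A, 0.30 for RPS16 and 0.44 for RPL3. On slide 3 alone they turned to 0.030 for RPS13, 0.11 for RPLP0, 0.019 for RPL18, 0.044 for RPS29, 0.088 for RPL13A, 0.14 for RPS16, 0.11 for RPL3 and 0.031 for RPS2. Median scaling gave 0.013 for RPLP0, 0.021 for RPS29, 0.0098 for RPL28, 0.0082 for RPL3 and 0.0025 for RPS2, quantile normalization gave -0.0045 for RPLP1, and the mean of a gene's probes gave 0.017 for RPS13, 0.060 for RPS29, 0.21 for RPL28 and 0.0022 for RPS2. Leaving out each cow moved RPLP0 from -0.030 to 0.010, RPS29 from -0.026 to 0.036, RPL28 from -0.053 to 0.0075, RPL3 from -0.045 to 0.026, RPS2 from -0.062 to 0.017 and RPLP1 from -0.0066 to 0.040. For probes on fewer than 20 arrays above background, signal limits the precision.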
